A study of Bos taurus with 24 samples.

Results

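Complement C1R (ENSBTAG00000008612) and the prion protein gene PRNP (ENSBTAG00000027937) are 2 of the 24616 genes listed for bovine monocyte-derived macrophages (MDMs) that met inactivated E. coli in culture. They were chosen by identifier because the change with E. coli in their expected counts differed between high and low responder cows in the same direction at 3 and at 18 hours. That difference, and its parts in control and in exposed wells, are therefore given as a description without a test. Tests are given for what this choice did not use, which is the E. coli effect averaged over both responder groups and its change with time.

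The MDMs were grown from blood mononuclear cells of 6 lactating Holstein cows, in AIM V medium with granulocyte-macrophage colony-stimulating factor for 6 days after an attachment step of 2 hours. The cows had been placed in a high responder group (n = 3) and a low responder group (n = 3) by the nitric oxide that their MDMs released in response to E. coli in vitro, so that the phenotype is a property of cultured cells and each group rests on 3 animals. At each time point 1 well per cow was the untreated control and 1 well was exposed to E. coli inactivated with paraformaldehyde at a multiplicity of infection of 5, which gave 8 conditions and 24 libraries. Per the study's methods, each time point had its own plate. A change between times therefore cannot be told apart from a difference between plates. The expected counts of a library summed to between 6297190 and 20936554 over all genes. Libraries are named here by the responder group, the well, the time and the number of their library code, and control and exposed libraries of the same number were taken as wells of 1 cow. Where a cow is named for a result that changes without it, high-92 stands for code 92 in the high responder group and low-91 for code 91 in the low responder group, each at the time given.

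C1R encodes a serine protease of the first complement component. In the C1 complex it is activated when C1q binds its target, and it then cleaves C1S, which goes on to cleave C4 and C2 and so starts the classical pathway. Most circulating complement comes from the liver, but macrophages also make several components, and interferon gamma is a known inducer of C1R and C1S. PRNP encodes the cellular prion protein, a glycoprotein held in the outer leaflet of the cell membrane by a glycosylphosphatidylinositol (GPI) anchor, present on neurons and on many leukocytes. The protein is best known for its misfolded form in scrapie and bovine spongiform encephalopathy.

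The macrophage label was checked against marker genes, of which only those with a symbol in the tables used here could be looked up. CD68, CD14, MSR1 and AIF1, 4 of 9 macrophage markers listed, were above 0 in every library. CD68 was the most abundant of them, with a median of 1999.62 TPM (transcript abundance relative to the whole library and corrected for transcript length) and a range from 1214.86 to 2671.06. Their summed level ranged from 1653.41 to 3799.98 TPM. The B cell marker CD79A ranged from 0.17 to 2.67 TPM, the NK and T cell effector gene PRF1 from 0.13 to 2.50 TPM, and the fibroblast gene LUM from 0 to 0.66 TPM with no count in 7 of the 24 libraries. No marker of dendritic cells, T cells, neutrophils or platelets was looked up. In bulk libraries such as these, fewer expressing cells and less RNA per cell cannot be told apart.

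C1R was the scarcer of both transcripts in every condition. Levels over time and wells are given as CPM, counts divided by a library size that edgeR's TMM method has normalized, a scale on which a gene is compared only with itself. In control wells of the high responder group at 3 hours, C1R had 0.546, 1.17 and 3.08 CPM in the cows of codes 92, 93 and 94. In the corresponding control wells of the low responder group it had 4.53, 7.69 and 8.90 CPM for codes 91, 92 and 93. The groups did not overlap, and all 3 high responder cows were below all 3 low responder cows. The value of 0.546 CPM rests on 4 counts, the lowest count of C1R in any library, with RSEM's interval for its TPM of 0.38 running from 0.158 to 0.994.

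After 3 hours with E. coli, C1R was at 8.63, 12.01 and 17.9 CPM in high responder cows of codes 92, 93 and 94. In the low responder cows of codes 91, 92 and 93 it was at 4.51, 8.10 and 16.0 CPM, a range that overlaps with that of the high responders. Thus the 3 high responder cows, lowest of all in their control wells, lay within the range of the exposed low responder wells or just above it.

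At 18 hours the control wells looked much as they had at 3 hours. High responder cows of codes 91, 93 and 94 had 1.71, 2.17 and 2.15 CPM of C1R, and low responder cows of codes 91, 92 and 94 had 5.14, 5.40 and 9.34 CPM, again without overlap. In exposed wells, C1R was at 69.6, 69.1 and 110 CPM in high responders of codes 91, 93 and 94. It was at 78.1, 46.1 and 56.8 CPM in low responders of codes 91, 92 and 94, so that the groups overlapped. All 6 exposed libraries of 18 hours were above all libraries of the other conditions.

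PRNP started from a higher level and spanned a narrower range. Its control wells at 3 hours had 57.7, 56.5 and 56.5 CPM in high responder cows of codes 92, 93 and 94. In low responders of codes 91, 92 and 93 they had 51.9, 93.5 and 86.1 CPM, and the low responder cow of code 91 was the lowest of the 6. With E. coli at 3 hours, PRNP was at 254, 241 and 286 CPM in the high responder group and at 71.2, 166 and 149 CPM in the low responder group, in the same order of codes. Here the groups did not overlap, with all 3 high responder cows above all 3 low responder cows.

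At 18 hours, PRNP had 43.9, 63.2 and 59.9 CPM in control wells of the high responder cows of codes 91, 93 and 94. The low responder cows of codes 91, 92 and 94 had 83.2, 79.4 and 77.7 CPM, all above the high responders. In exposed wells the high responders reached 327, 357 and 408 CPM and the low responders 246, 143 and 252 CPM, without overlap. In the responder group with the higher control level PRNP thus had the lower level after exposure.

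**Figure D1:**
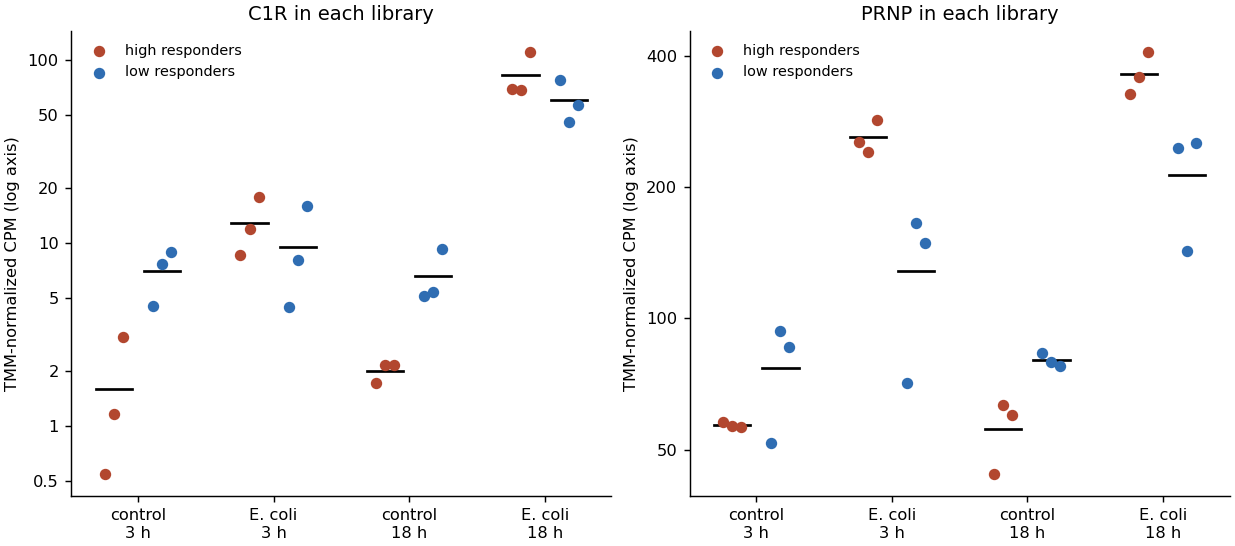
TMM-normalized CPM (log axis) of C1R and PRNP in each of the 24 libraries by well, time and responder group, with black lines for the mean of 3 cows. C1R of high responders starts below that of low responders and overlaps with it after exposure, whereas PRNP of high responders is above that of low responders after exposure at both times.

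Ordered by the mean over 3 cows, the lowest C1R level was that of high responder control wells at 3 hours (1.60 ± 1.32 CPM, SD) followed by those at 18 hours (2.01 ± 0.258 CPM), whose ranges overlapped. Low responder control wells followed with 6.63 ± 2.36 CPM at 18 hours and 7.04 ± 2.26 CPM at 3 hours, then exposed wells of 3 hours with 9.54 ± 5.89 CPM in low and 12.8 ± 4.67 CPM in high responders. The ranges of neighbours among these 4 conditions overlapped, and they did not overlap with those of the high responder control wells at 18 hours. Exposed wells of 18 hours stood apart at the top, with 60.4 ± 16.3 CPM in low and 83.0 ± 23.6 CPM in high responders.

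For PRNP, the 4 control conditions had means from 55.7 ± 10.3 to 80.1 ± 2.79 CPM. Exposed low responder wells had 129 ± 50.4 CPM at 3 hours and 214 ± 61.5 CPM at 18 hours, and exposed high responder wells 260 ± 23.0 and 364 ± 40.7 CPM. Every condition overlapped with the next higher one, except that the exposed high responder wells of 18 hours stood above those of 3 hours.

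Compared per length, C1R had 5.42% ± 4.47 of the TPM of PRNP in high responder control wells at 3 hours (SD, n = 3) and 17.5% ± 2.14 in those of low responders. After 18 hours of exposure it had 43.3% ± 7.70 in high and 55.3% ± 10.4 in low responders. In TPM, C1R was above 22.9% of the 14198 genes with a mean above 0 in high responder control wells at 3 hours and above 81.3% of 14153 such genes in high responder wells exposed for 18 hours. For PRNP these shares were 61.7% and 90.9%.

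The first question is how both genes responded to E. coli when the responder groups are averaged. C1R and PRNP rose at both times. With edgeR's quasi-likelihood test and Benjamini-Hochberg adjustment over all genes, the mean E. coli effect on C1R at 3 hours was 3.35-fold (95% confidence interval 2.44 to 4.61; SE of the log2 fold change 0.20, adjusted p = 1.64e-04). At 18 hours it was 18.8-fold (14.7 to 24.1; SE 0.16, adjusted p = 1.98e-08). PRNP rose 2.78-fold at 3 hours (2.43 to 3.18; SE 0.086, adjusted p = 2.56e-06) and 4.08-fold at 18 hours (3.43 to 4.85; SE 0.11, adjusted p = 2.07e-07).

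A rise was common in these cells. At 3 hours 13.5% of the 11264 genes tested were called higher (adjusted p below 0.05 and fold change above 1.5) and 12% lower, and at 18 hours 15.1% of 11759 were called higher and 21.4% lower. By the size of the log2 fold change C1R was 470th and PRNP 567th from the top at 3 hours, and they were 99th and 370th at 18 hours.

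Within cows the change was not uniform. In the 3 high responder cows at 3 hours, C1R rose 15.8-, 10.2- and 5.80-fold for codes 92, 93 and 94. The low responder cows of codes 91, 92 and 93 had ratios of exposed to control CPM of 0.994, 1.05 and 1.80. In CPM, C1R was thus above its control level in 5 of 6 cows at 3 hours and in 6 of 6 cows at 18 hours. In TPM as deposited, C1R was below its control level at 3 hours in low-91 (2.17 against 2.92) and low-92 (3.92 against 5.34). PRNP was above its control level in all 6 cows at both times, which was so for 17.3% of 11905 genes at 3 hours and for 28.9% at 18 hours.

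The scale matters for the smallest of these changes. In TPM as deposited, the median gene of the 11905 had a mean log2 ratio of exposed to control of -0.46 in high and -0.52 in low responders at 3 hours, and of -0.40 and -0.17 at 18 hours, whereas after TMM scaling these medians lay between -0.06 and 0.02. The mean log2 ratio of C1R in low responders at 3 hours was 0.30 ± 0.47 (SD, n = 3) in CPM and -0.17 ± 0.46 in TPM, and relative to the median gene it was 0.35 on both scales. That of PRNP was 0.69 ± 0.20 in CPM and 0.21 ± 0.15 in TPM, or 0.74 and 0.73 relative to the median gene.

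The second question is whether the mean effect changed from 3 to 18 hours, which were also different plates. For C1R the effect was larger at 18 hours by a log2 fold change of 2.55 (SE 0.28, 95% confidence interval 1.94 to 3.16, edgeR adjusted p = 1.33e-05), which is a further 5.85-fold. For PRNP it was larger by 0.60 (SE 0.15, 0.29 to 0.92, adjusted p = 0.00517), or 1.52-fold, just over the fold change needed for a call. Such a call with a larger effect at 18 hours was made for 10.7% of 11905 genes and one with a smaller effect for 16.1%. The call of PRNP was lost without a term for the cow (0.60, edgeR adjusted p = 0.106). It fell below the fold change, with the adjusted p still under 0.05, when high-93 (0.58) or low-91 (0.55) of 3 hours, or high-91 (0.56), low-91 (0.55) or low-94 (0.51) of 18 hours was left out.

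In the 2 kinds of well taken apart, both genes rose in exposed wells between 3 and 18 hours, C1R by 2.65 on the log2 scale (SE 0.31, edgeR adjusted p = 1.84e-06) and PRNP by 0.61 (SE 0.18, adjusted p = 0.0113), while 13.1% of genes were called higher and 15.7% lower. The change of PRNP in exposed wells fell below the fold change when high-93 (0.58) or low-91 (0.46) of 3 hours, or high-94 (0.56), low-91 (0.55) or low-94 (0.54) of 18 hours was left out. In control wells, the difference between 18 and 3 hours was 0.07 for C1R (95% confidence interval -0.63 to 0.78, edgeR adjusted p = 0.975) and 0.01 for PRNP (-0.37 to 0.40, adjusted p = 0.994), intervals that leave room for a change of up to 1.72-fold in C1R and 1.32-fold in PRNP. Of all genes, 0.0504% were called in control wells, which is 6 of 11905. This number was 51 with DESeq2, and 137 when libraries with the same letters in their code were blocked as 1 cow. With that block the differences in control wells were 0.14 for C1R and 0.04 for PRNP, both uncalled.

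**Figure D2:**
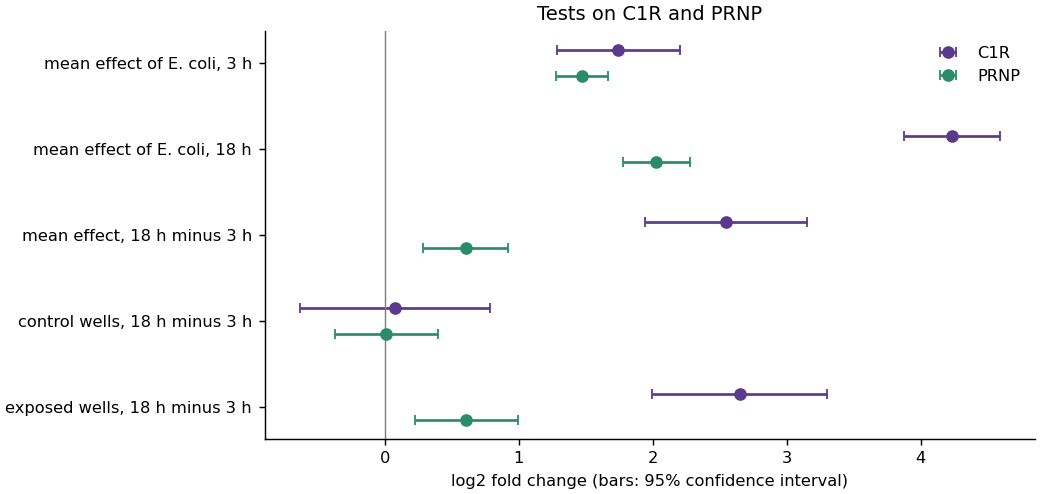
Log2 fold changes of C1R and PRNP with 95% confidence intervals from edgeR's quasi-likelihood fits, for the mean E. coli effect at each time, its change with time and the change with time in control and exposed wells. The effect on C1R at 18 hours (4.23) is the largest of the 10 values, and both intervals for control wells include 0.

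Both genes were chosen for the difference between the responder groups, so the following values describe it and test nothing. The mean log2 fold change of C1R with E. coli was 3.29 ± 0.73 in high and 0.30 ± 0.47 in low responders at 3 hours (SD, n = 3 cows each). At 18 hours it was 5.34 ± 0.34 and 3.21 ± 0.67. As geometric means these are 9.79-fold against 1.23-fold at 3 hours and 40.5-fold against 9.25-fold at 18 hours. For PRNP the values were 2.19 ± 0.13 against 0.69 ± 0.20 at 3 hours and 2.72 ± 0.20 against 1.37 ± 0.46 at 18 hours, or 4.56-fold against 1.61-fold and 6.59-fold against 2.59-fold. The lowest high responder cow was above the highest low responder cow for both genes at both times, which was so for 9.09% of 11905 genes at 3 hours and for 10.7% at 18 hours.

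**Figure D3:**
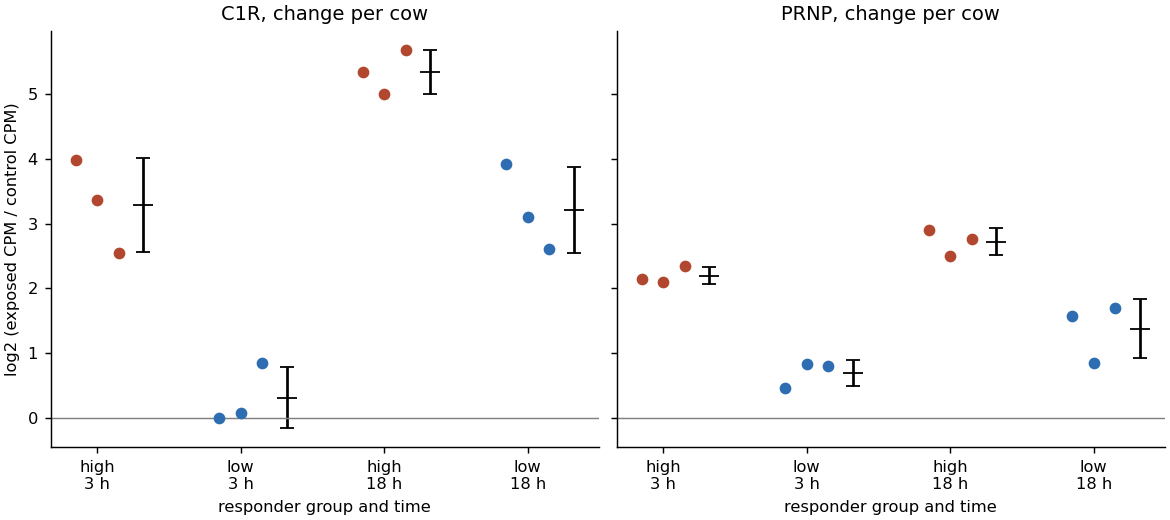
Log2 ratio of exposed to control CPM of C1R and PRNP in each cow, by responder group and time, with the mean and SD of 3 cows beside the points. For C1R in low responders at 3 hours, 2 of 3 cows lie at about 0, and at 18 hours all of them are above 2.

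In the fit with a term for each cow, the difference of the effect, high minus low, was 2.75 (SE 0.40) for C1R and 1.54 (SE 0.17) for PRNP at 3 hours, and 2.20 (SE 0.33) and 1.36 (SE 0.22) at 18 hours on the log2 scale. Genes called with a larger effect in high responders made up 0.178% of the genes tested at 3 hours and 1.34% at 18 hours (1.62% in either direction). C1R and PRNP belong to the 5 genes in both of these lists because they were chosen that way, and nothing is read from it. The 5 are 25% of the 20 genes at 3 hours and 3.18% of the 157 at 18 hours. The number of genes called at 3 hours was 0 without a term for the cow, and also 0 when high-93 or any of the 3 low responder cows was left out, and at 18 hours it was 0 without a term for the cow. At 3 hours it was 13 without high-92 and 506 without high-94. At 18 hours, where 190 genes were called in either direction, it was 30 without low-92 and 76 without low-94. The other 3 of the 5 genes in both lists, named after their values were seen, were NAIP, GBP5 and ENSBTAG00000011563, for which no symbol was looked up.

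Control and exposed wells had different shares in this difference for each gene. As means of log2 CPM, C1R of the high responders was lower in control wells by 2.43 at 3 hours, a 5.40-fold lower level, and higher in exposed wells by 0.55, so that the control wells made up 81.5% of the sum of 2.99. At 18 hours they were lower in control wells by 1.67, or 3.19-fold, and higher in exposed wells by 0.46, and the control wells made up 78.5%. In edgeR's fit of 3 hours the difference between the groups was -2.08 (SE 0.59) in control and 0.46 (SE 0.46) in exposed wells for C1R. The first was -2.94 without high-94 and the second 1.08 without low-93, and without any other cow they lay between -2.33 and -1.73 and between 0.10 and 0.64. In edgeR's fit of 18 hours the difference for C1R was -1.73 in control and 0.45 in exposed wells. When 1 cow was left out these lay between -1.87 and -1.41 and between 0.20 and 0.70. In TPM the difference in exposed wells of 18 hours was 0.26. The SD within groups was 0.96 and 0.75 in the control and exposed wells of 3 hours and 0.37 and 0.38 in those of 18 hours.

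For PRNP, with all cows included, the exposed wells made up the larger share at 3 hours, and at 18 hours the shares were closer. High responders were higher in exposed wells by 1.11 on the log2 scale at 3 hours (2.15-fold) and by 0.81 at 18 hours (1.75-fold), and lower in control wells by 0.39 and 0.54. The exposed wells made up 73.8% of the difference at 3 hours and 59.8% at 18 hours. In edgeR's fit of 3 hours the differences were 1.05 in exposed and -0.44 in control wells. When 1 cow was left out they lay between 0.75 and 1.25 and between -0.67 and -0.27. The shares at 3 hours, and their contrast with those at 18 hours, thus depend on single cows. In TPM the differences at 18 hours were nearly even, with 0.60 in exposed and -0.56 in control wells. In edgeR's fit of 18 hours they were 0.76 and -0.54, and between 0.55 and 0.92 and between -0.64 and -0.39 when 1 cow was left out. Within groups the SD was 0.33 and 0.48 in the control and exposed wells of 3 hours and 0.20 and 0.35 in those of 18 hours.

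Without overlap, high responders were below low responders in control wells for 6.95% of 11905 genes at 3 hours and 13.2% at 18 hours, as was C1R at both times and PRNP at 18 hours. In exposed wells, high responders were above low responders without overlap for 8.16% of genes at 3 hours and 12.2% at 18 hours, as was PRNP at both times and C1R at neither. The same groups overlapped or stayed apart in TPM.

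**Figure D4:**
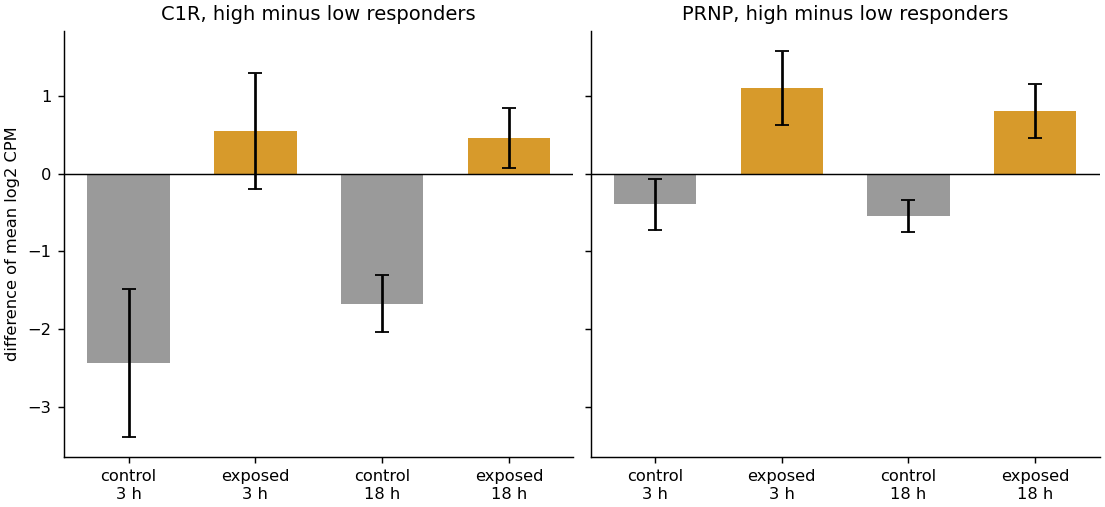
High minus low responders in mean log2 CPM of C1R and PRNP, in control and exposed wells at 3 and 18 hours, with bars for the pooled SD within groups of 3 cows. The C1R values reach -2.43 and -1.67 in control wells, while the larger values for PRNP are those in exposed wells (1.11 and 0.81).

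RSEM's abundance-weighted length of C1R, which has 2 annotated transcripts, lay between 2282 and 2303 bases over all libraries, so that reads per molecule differed little between them. Exposed minus control wells it changed by 2.23 ± 10.2 bases at 3 hours and by -1.37 ± 3.42 bases at 18 hours (SD, n = 6 cows). PRNP has 1 annotated transcript with a length of 4240 bases in all libraries. Expected counts of both genes were whole numbers in every library.

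Other complement genes were looked up from a list of 45 symbols, of which only 5 beside C1R had an identifier in the tables used here. Of these 5, 4 have an identifier only through rows that the study placed there by its ranking of the difference between responder groups, so their counts are not a sample of the pathway. C2, which C1S cleaves, and C3, the central component on which all pathways converge, rose at both times. The mean effect on C2 was 0.74 (SE 0.082) at 3 hours and 0.65 (SE 0.076) at 18 hours on the log2 scale, and that on C3 was 1.14 (SE 0.083) and 1.57 (SE 0.088), with edgeR adjusted p between 2.27e-07 and 1.19e-04. CD59, a GPI-anchored inhibitor of the membrane attack complex, had a mean effect of -0.12 (SE 0.32, adjusted p = 0.780) at 3 hours and fell by 2.54 (SE 0.39, adjusted p = 2.58e-04) at 18 hours. Its level was low. At 18 hours it had 11.7 ± 7.41 TPM in high and 3.30 ± 0.953 TPM in low responder control wells (SD). In exposed wells it had 1.10 ± 0.655 and 0.65 ± 0.575 TPM.

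CD55, a GPI-anchored inhibitor of the C3 convertases, had 0.50 (SE 0.15) at 3 hours and 0.51 (SE 0.11) at 18 hours, under the fold change needed for a call. ITGB2, the beta chain of the complement receptors CR3 and CR4, was the most abundant of these genes with means between 614 and 1126 TPM and had 0.09 (SE 0.10) and -0.48 (SE 0.056). In all, 2 of 5 were called higher and 0 lower at 3 hours, and 2 higher and 1 lower at 18 hours, with a median log2 fold change of 0.50 and 0.51 beside -0.02 over all genes at both times. Of all genes, 13.5% were called higher and 12% lower at 3 hours, and 15.1% and 21.4% at 18 hours. Per length, C1R was at 46.0 ± 13.2 TPM in high responder wells after 18 hours with E. coli, C3 at 22.8 ± 3.58 and C2 at 163 ± 42.4 TPM.

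The difference of the effect between responder groups is the value by which the study ranked the rows through which 4 of the 5 were looked up, so it is described here without a test. High minus low, it was 0.89 (SE 0.17) for C3 and 0.63 (SE 0.30) for CD55 at 3 hours on the log2 scale. At 18 hours it was 0.51 (SE 0.17) for C3 and 1.19 (SE 0.21) for CD55. For C2 it was -0.03 (SE 0.16) at 3 hours and 0.38 (SE 0.15) at 18 hours, and for ITGB2 0.25 (SE 0.20) and 0.32 (SE 0.11). For CD59, which needed no such row to be looked up, it was -0.14 (SE 0.65) at 3 hours and -0.82 (SE 0.94) at 18 hours.

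Partners of the prion protein and genes of the GPI anchor made up a list of 48 symbols, of which 8 beside PRNP had an identifier, CD55 and CD59 among them. Here too most identifiers come from rows that the study had ranked. FYN, a kinase to which prion protein signalling has been linked, rose at both times in the mean over both responder groups. So did PIGM, a mannosyltransferase of GPI anchor synthesis, and the GPI-anchored surface proteins CD48 and PLAUR (the urokinase receptor). Their mean effects at 3 and 18 hours were 0.73 (SE 0.12) and 0.67 (SE 0.13) for FYN and 0.61 (SE 0.12) and 0.93 (SE 0.081) for PIGM on the log2 scale. They were 1.15 (SE 0.13) and 1.46 (SE 0.087) for CD48 and 0.97 (SE 0.13) and 0.63 (SE 0.11) for PLAUR, and the edgeR adjusted p was at most 0.00347 in these 8 tests. The groups differed for FYN at 18 hours. In low responders its mean was 36.9 ± 2.62 TPM in control and 33.5 ± 11.7 TPM in exposed wells (SD). In high responders these means were 21.0 ± 12.6 and 47.8 ± 43.1 TPM, with exposed wells from 21.3 to 97.6 TPM.

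CD14, a GPI-anchored part of the lipopolysaccharide receptor complex, had -0.09 (SE 0.099, edgeR adjusted p = 0.512) at 3 hours and fell by 0.75 (SE 0.078, adjusted p = 1.64e-05) at 18 hours. GPC1, a GPI-anchored proteoglycan that binds prion protein, had 0.36 (SE 0.20) and 0.49 (SE 0.11), under the fold change for a call. Thus 4 of 8 were called higher and 0 lower at 3 hours, and 4 higher and 2 lower at 18 hours, with medians of 0.55 and 0.57, beside the same shares of all genes (13.5% higher and 12% lower, then 15.1% and 21.4%). None of the 8 rose as much as PRNP at either time, while the fall of CD59 at 18 hours was larger in size than the rise of PRNP. The difference between responder groups, again a description for genes looked up through ranked rows, was 0.43 (SE 0.23) for FYN at 3 hours and 1.40 (SE 0.26) at 18 hours. At 3 hours it was 0.0032 (SE 0.24) for CD48, 0.086 (SE 0.20) for CD14, 0.20 (SE 0.26) for PLAUR and 0.77 (SE 0.41) for GPC1. At 18 hours these 4 had 0.41 (SE 0.17), 0.66 (SE 0.16), 0.65 (SE 0.21) and 0.50 (SE 0.23). For PIGM, which needed no ranked row, it was 0.19 (SE 0.24) at 3 hours and 0.03 (SE 0.16) at 18 hours.

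Single cows decided some of these calls. The mean effect on PIGM at 3 hours fell below the fold change without high-92 (0.52) or high-94 (0.57) and with all libraries in 1 fit (0.57), and that on FYN at 18 hours did so without high-93 (0.55) or low-94 (0.57). For PLAUR at 18 hours this was the case without high-91 (0.58) or high-94 (0.56). The calls of FYN at either time and of C2 at 3 hours were also lost without a term for the cow, with adjusted p of 0.117, 0.112 and 0.0680.

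**Figure D5:**
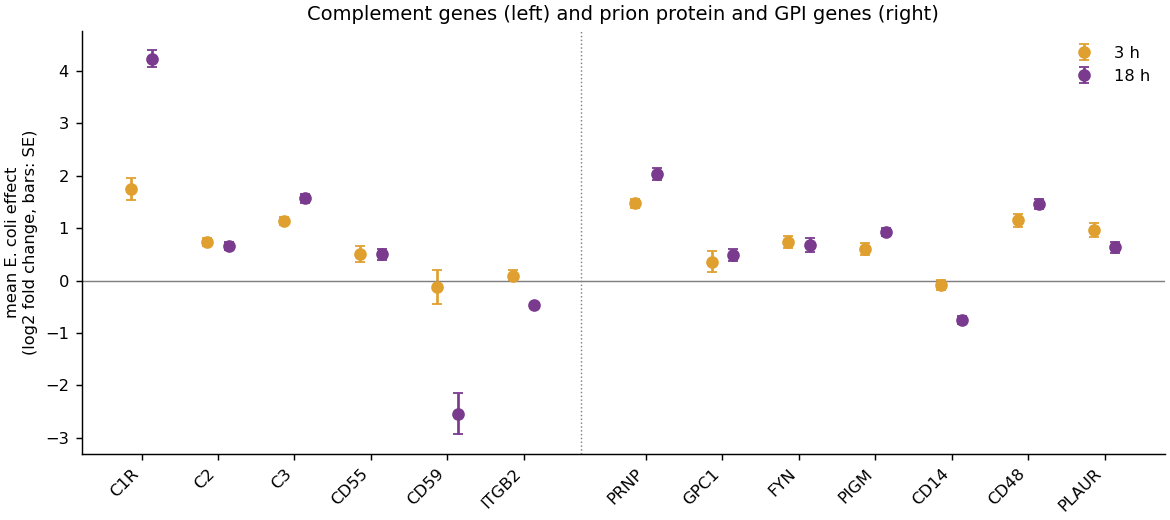
Mean E. coli effect (log2 fold change with SE) at 3 and 18 hours for C1R and 5 other complement genes, left of the dotted line, and for PRNP and 6 prion protein and GPI genes, right of it. C1R at 18 hours is the highest point (4.23) and CD59 at 18 hours the lowest (-2.54).

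Interferon-induced genes were also looked up, since interferon is a known inducer of C1R. Of 19 symbols listed, 8 had an identifier, all of them through rows that the study had ranked by the difference between responder groups, so that these counts too are not a sample of the pathway. Of these 8, 6 were called higher and 0 lower at each time, beside 13.5% and 15.1% of all genes called higher, with a median log2 mean effect of 2.02 at 3 hours and 1.19 at 18 hours. The call of IFIT1 at 18 hours (0.62, SE 0.22, edgeR adjusted p = 0.0322) was lost with DESeq2 (adjusted p = 0.0780), without a term for the cow (0.196), and when low-91 (0.0577), low-92 (0.0836) or low-94 (0.0749) was left out. Without high-93 it fell below the fold change (0.31). The call of PSMB9 at 3 hours (0.63, SE 0.14) was lost without a term for the cow (adjusted p = 0.0872), and the effect fell below the fold change without high-92 (0.54), high-93 (0.58) or low-93 (0.54).

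The difference of the effect between responder groups, which these 8 were ranked by, is described without a test. GBP5, a guanylate-binding protein, had a larger effect in high responders by 1.97 (SE 0.24) at 3 hours and 1.95 (SE 0.20) at 18 hours on the log2 scale. For IFIT1 the difference was 2.59 (SE 0.32) and 1.45 (SE 0.45), and for PSMB8, a subunit of the immunoproteasome, -0.0071 (SE 0.21) and 0.49 (SE 0.14). The other 5 lay between 0.42 (PSMB9) and 1.71 (ISG15) at 3 hours and between 0.77 (TAP1) and 1.60 (ISG15) at 18 hours. A larger effect did not mean a higher level after exposure. At 3 hours GBP5 had 3.14 ± 1.98 TPM in high and 22.5 ± 14.1 TPM in low responder control wells (SD). In exposed wells it had 114 ± 74.0 and 200 ± 122 TPM. Of the 8, only IRF1 had the higher mean TPM in exposed high responder wells at 3 hours (786 ± 145 against 726 ± 54.9). At 18 hours IRF1, PSMB8 and PSMB9 did. With time 1 of the 8 was called for a larger effect (PSMB9) and 2 for a smaller one (IFIT1 and ISG15), beside 10.7% and 16.1% of all genes. The call of PSMB9 was lost without a term for the cow (adjusted p = 0.0591) or without low-92 of 3 hours (0.0506), and the effect fell below the fold change without high-94 of 3 hours (0.52) or low-91 of 18 hours (0.54). The call of ISG15 was lost without a term for the cow (0.0770).

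Macrophage markers moved with the E. coli effect at 18 hours, and their part in the values of C1R and PRNP was not tested. MSR1 (scavenger receptor) fell by 3.75 on the log2 scale (SE 0.13), AIF1 by 0.95 (SE 0.082) and CD14 by 0.75, while CD68 rose by 0.61 (SE 0.063), with edgeR adjusted p of at most 1.64e-05. Their summed level was between 2442.23 and 2937.06 TPM in the 6 exposed and between 2259.34 and 3680.77 TPM in the 6 control wells of 18 hours. PRF1 rose by 2.01 (SE 0.27, adjusted p = 1.00e-04) and still had at most 2.50 TPM. LUM was at or below 0.66 TPM in every library. At 18 hours its mean was 0.49 ± 0.095 TPM in exposed and 0.29 ± 0.32 TPM in control wells of low responders. In high responders these means were 0.15 ± 0.22 and 0.06 ± 0.06 TPM. A part of LUM-expressing cells in the values of C1R was not tested.

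Genes with a pattern most like that of C1R were taken from the 2289 genes with a symbol that passed the filter, by Pearson's r of log2 CPM over the 24 libraries, which share cows and the effects of exposure and time. Part of these symbols come from the rows ranked by the difference between responder groups, so such genes are favoured among those named. The 4 most alike were APOBEC3Z1 (r = 0.952), a cytidine deaminase, AVIL (0.942), an actin-binding protein of the villin family, BMP1 (0.942), a procollagen protease, and BFAR (0.932). In control wells of 3 hours APOBEC3Z1 had 0.874 ± 0.811 CPM in high and 4.14 ± 1.70 CPM in low responders. In control wells of 18 hours it had 1.07 ± 0.493 CPM in high and 2.89 ± 2.46 CPM in low responders. It reached 952 ± 310 and 583 ± 202 CPM in exposed wells of high and low responders at 18 hours. The 3 most opposite were MMD (-0.910), PRPSAP2 (-0.909) and CDC42EP3 (-0.904).

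For PRNP the 5 most alike were VPS4B (r = 0.952), an ATPase of the ESCRT machinery for membrane budding, MCOLN2 (0.948), an endolysosomal cation channel, GSAP (0.947), the gamma-secretase activating protein, RBM5 (0.940), an RNA-binding splicing factor, and CDC37L1 (0.935), a cochaperone of HSP90. MCOLN2 went from 21.5 ± 4.79 to 76.7 ± 2.39 CPM in high and from 27.2 ± 2.34 to 48.4 ± 10.4 CPM in low responders at 3 hours. The 3 most opposite were LPXN (-0.930), UBQLN4 (-0.925) and VPS16 (-0.920). Between C1R and PRNP r was 0.871, and 67 of the other 11904 genes were more like C1R than PRNP was, and 135 were more like PRNP than C1R was.

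In the gene order of RefSeq's bovine assembly ARS-UCD2.0, which is not the build of the files, C1R on chromosome 5 lies between RBP5, C1RL and LOC112446756 on one side and C1S, LPCAT3 and EMG1 on the other, and none of these was looked up. PRNP on chromosome 13 lies between LARP4B, DIP2C and ZMYND11 on one side and PRND, RASSF2 and SLC23A2 on the other, and 3 of these 6 had an identifier. RASSF2, a Ras association domain protein, had a mean effect of 2.30 (SE 0.17, edgeR adjusted p = 1.15e-05) at 3 hours, above that of PRNP, and of 1.14 (SE 0.12, adjusted p = 1.39e-05) at 18 hours. SLC23A2, an ascorbate transporter, had 0.58 (SE 0.17, adjusted p = 0.0241) and 0.92 (SE 0.070, adjusted p = 1.78e-06). ZMYND11, a reader of histone methylation, had -0.34 (SE 0.094, adjusted p = 0.0192) and 0.06 (SE 0.064, adjusted p = 0.424). The effects on SLC23A2 and ZMYND11 at 3 hours were under the fold change needed for a call. RASSF2 and SLC23A2 were looked up only through rows that the study had ranked by the difference between responder groups. With time the effect on RASSF2 became smaller by 1.11 (SE 0.23, adjusted p = 0.00169), opposite in direction to the change of PRNP.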

How the data were processed

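MDM libraries of 24 wells were made by the authors with a stranded mRNA kit and sequenced as read pairs. Per the labels and the study's methods, reads were trimmed with Trimmomatic, checked with FastQC 0.11.5, mapped with STAR to UMD 3.1 and quantified with RSEM. The deposited tables give, per gene and library, expected counts (estimated read pairs, not normalized) and TPM, and the authors tested differences with DESeq2 1.22.2. Other columns deposited beside them, RSEM's bounds of TPM, the posterior SD of the count and the transcript length, were used as given.

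Expected counts were rounded and fitted over all genes in R 4.3.3 with edgeR 4.0.16 (TMM, its filter on low counts, quasi-likelihood test, Benjamini-Hochberg adjustment; calls at adjusted p below 0.05 and fold change above 1.5). A term for each cow at each time was used for the E. coli effect, its difference between responder groups and its change with time, and none for comparisons within 1 kind of well. Control and exposed libraries of the same number deviated together (r between 0.327 and 0.732 in 12 pairs, and between -0.568 and 0.00521 in 24 pairs of different numbers). Deviations were taken from the mean of each condition, so a positive r in pairs of the same number pulls the others towards negative values. The 24 pairs are thus not separate evidence for the pairing. The labels do not state which libraries of both times share a cow. The letters in the library codes recur at both times within each responder group and may mark the cow. The main fits between times did not use the letters and took the libraries of each time as separate cows. A code number may thus stand for different cows at 3 and 18 hours. Alternatives were other size factors, no or a stricter filter (a mean of 50 counts), DESeq2 1.42.0, no cow term, 1 joint fit of all libraries, a looser adjusted p (0.1), a block by library letter between times, TPM for levels and leaving out each cow. On simulated data the mean effect at 3 hours was recovered for 98 of 100 genes changed 2-fold and 99 of 100 changed 4-fold among 11264, with 4 false calls. The difference between responder groups was recovered for 51 of 100 and 95 of 100 at 3 hours (11264 genes, 7 false calls) and for 57 and 94 at 18 hours (11759 genes, 10 false calls), and the change of the mean effect with time for 79 and 100 (11905 genes, 5 false calls). These values are for edgeR. With DESeq2 the difference was recovered for 35 and 85 at 3 hours and for 40 and 90 at 18 hours. The simulated counts had a common dispersion for all genes and no differences between cows. They therefore do not measure recovery or false calls in the real libraries. Depth limits low genes, and 24 wells of 6 cows are all the replication there is.

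The genes, gene lists and tests were chosen with earlier results of these data known. Genes named are C1R, PRNP, listed complement, prion protein, GPI and marker genes that were looked up, the 5 most and 3 least similar genes, and 3 neighbours on each side. Of the genes this rule names, 1 is not reported here. Symbols come from the identifier and name columns of partial copies of the gene tables published with the study, which pair 2808 identifiers, 983 of them only through rows that the study ranked by the difference between responder groups. Fold changes and p-values in those copies were not used. No sequence was used here.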

Additional observations from a re-analysis of the deposited data

Results flagged for a closer look

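Between the time points, the mean E. coli effect differed for C1R by a log2 fold change of 2.55 and for PRNP by 0.60, both larger at 18 hours. Among the listed complement and GPI genes it differed for CD59 (-2.36, SE 0.51, edgeR adjusted p = 0.00262) and for CD14 (-0.61, SE 0.13, adjusted p = 0.00209), both lower at 18 hours. CD59 was scarce in exposed wells of 18 hours, with means of 1.10 TPM in high and 0.65 TPM in low responders. The difference for CD14 was not called without a term for the cow (-0.61, adjusted p = 0.249), and fell below the fold change without the cows of high responder code 92 (-0.56) or low responder code 93 (-0.54) at 3 hours, or high responder code 94 (-0.54) or low responder code 92 (-0.57) at 18 hours.

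Between the responder groups, the E. coli effect at 18 hours was larger in high responders for CD55 by 1.19 and for FYN by 1.40. Both could be looked up only through rows that the study had ranked by this same difference, so the values restate how these genes came to be listed.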

How the results depend on the processing

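The mean E. coli effect on C1R and PRNP stayed called at both times under every alternative run on the counts. Log2 fold changes of C1R lay between 1.59 and 1.98 at 3 hours and between 4.10 and 4.38 at 18 hours. Those of PRNP lay between 1.44 and 1.53 and between 1.94 and 2.16. The change with time of C1R stayed called as well (2.29 to 2.73), as did its rise in exposed wells (2.48 to 2.98). The larger effect on PRNP at 18 hours missed the fold change with DESeq2's size factors in edgeR (0.57), with a mean of at least 50 counts (0.58), with DESeq2 (0.57, adjusted p = 0.00237) and in 5 of the 12 fits without the wells of 1 cow at 1 time (range over the 12 from 0.51 to 0.74). Without the replicate block of the cow it was 0.60 with an adjusted p of 0.106. The rise of PRNP in exposed wells missed it with DESeq2's size factors and with DESeq2 (0.58 in both) and in 5 of the 12 such fits (0.46 to 0.72), and wells left out at different times may belong to the same cow. In control wells the values without 1 cow lay between -0.087 and 0.49 for C1R and between -0.098 and 0.090 for PRNP, all uncalled. TPM was compared for levels only and was not tested. In TPM the log2 ratio of mean levels, exposed over control, was -0.05 for C1R in low responders at 3 hours against 0.44 in CPM. For C1R in high responders at 18 hours it was 4.99 against 5.37. For PRNP at 3 hours it was 0.24 against 0.74 in low and 1.80 against 2.19 in high responders. In high responders at 18 hours it was 2.33 against 2.71 for PRNP. The ratio was lower in TPM for both genes in each group and at each time.

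Counts of called genes over all genes moved more than the values of both genes. The difference between responder groups was called for 20 genes at 3 hours and 190 at 18 hours, for 0 at both times without the replicate block (where edgeR gave 330 and 1150 an unadjusted p below 0.05), for 189 and 398 with DESeq2, 123 and 448 at an adjusted p below 0.1, 103 and 435 without a filter, and 165 and 124 with all libraries in 1 fit. Without 1 cow it was between 0 and 506 at 3 hours (506 without high responder code 94, 13 without code 92, 0 without high responder code 93 or any low responder cow, with between 823 and 1171 genes at an unadjusted p below 0.05) and between 30 and 178 at 18 hours (30 and 76 without low responder codes 92 and 94). Between times, 6 genes were called in control wells, 51 with DESeq2, 24 at an adjusted p below 0.1 and 137 with a replicate block by library letter, and between 4 and 22 without 1 cow (22 without high responder code 93 at 3 hours). Among the tests of the mean effect and of time, the replicate block changed no other call of C1R or PRNP, whereas no gene, C1R and PRNP included, was called for the difference between responder groups without it. Low counts limit C1R in high responder control wells, where its lowest count was 4.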
